A study of Mus musculus with 16 samples.

Results

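The 10 genes described here encode proteins that shorten the poly(A) tail of maternal mRNA or remove its cap: Btg4, Zfp36l2, Cnot1, Cnot6, Cnot6l, Cnot7, Cnot8, Pan2, Dcp1a and Dcp2. They were picked by name from the 25965 gene rows of an RNA-seq table of mouse oocytes, and each has exactly 1 row. The size classes allow the level of each mRNA to be followed through oocyte growth. All oocytes came from wild-type C57BL/6 mice (C57BL/6Babr in the study's methods) and no treatment or deletion was involved. RNA was sequenced from pools of oocytes sorted by diameter, with 2 libraries, A and B, per class. The classes were 10-30 µm, then 40-45 µm, then 50-55 µm, and last 60-65 µm, and there was 1 column of values for fully grown germinal vesicle (GV) oocytes. CpG methylation was measured in 2 RRBS libraries (reduced representation bisulfite sequencing, which favours CpG-rich DNA) for each class but the smallest, and in 1 PBAT library (post-bisulfite adaptor tagging, which covers the whole genome) of 60-65 µm oocytes. The larger classes were collected from older pre-pubertal mice, so that diameter and age cannot be told apart. Nothing in the labels says that libraries A and B came from separate litters, and the p-values below measure the spread between these pools.

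A growing oocyte transcribes and stores mRNA that it will translate only after growth, and then clears much of that store at meiotic maturation and after fertilisation. Clearance begins with deadenylation, by the PAN2-PAN3 complex and by the large CCR4-NOT complex, and goes on with removal of the cap by DCP2 and its activator DCP1A. In the oocyte, BTG4 links CCR4-NOT to mRNA during maturation, and ZFP36L2 is an RNA-binding protein that directs CCR4-NOT to transcripts with AU-rich elements.

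Levels are given in RPKM, reads per kilobase of exon scaled to the mapped reads of the library. This allows for exon length and depth, but not for the differences between libraries related to GC content and transcript length, given below. RPKM is a share of each library, and a change in RNA per oocyte was not measured. In these pools, fewer oocytes that express a gene and less of its RNA per oocyte cannot be told apart. The values still contained the whole reads behind them, and each member rested on 1037 to 67484 recovered reads per library, of library totals of 99.4 to 198 M (megareads). For Btg4, Cnot1, Pan2 and Dcp1a more than 1 exon length gave whole reads. The shortest was taken, so their counts are the lowest that match. The 13 oocyte markers checked, among them Gdf9, Zp3 and Nobox, summed to 2862 to 4094 RPKM per library, whereas 12 granulosa markers summed to 2.15 to 9.78 RPKM. That granulosa sum was higher in larger oocytes and came mostly from Nr5a2 and Cyp19a1. Foxl2 and Amh did not exceed 0.0642 and 0.281 RPKM in any library. Each of the 12 markers but Foxl2 had a higher mean at 60-65 than at 10-30 µm. Among them Inha went from 0.168 to 0.535 RPKM, Kitl from 0.166 to 0.452 and Fshr from 0.049 to 0.233. Amh went from 0.0937 to 0.209 RPKM and Gja1 from 0.0492 to 0.151. The 8 markers of theca and stroma went from 3.93 and 2.83 RPKM at 10-30 µm to 1.17 and 1.16 RPKM at 60-65 µm, and the 5 markers of endothelium and blood from 0.629 and 0.69 to 4.8 and 4.43 RPKM, almost all of it Pecam1. Their part in the results was not tested.

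The starts of these genes differed in base composition. The 250 bases before the RefSeq start, on build GRCm38.p6, were examined for 6 of the 10 members. Dcp2 was left out of this search, and no window was available for Zfp36l2, Cnot1 and Cnot7. Windows are shown for the member with the highest level and for the member with the largest change. A CpG-rich member is also shown, whose annotated start matters for the methylation values below. Capitals mark CpG dinucleotides, the target of the methylation measured, and each sequence runs 5′ to 3′ along the strand of its gene. The windows lie at chr9:51115751-51116000 on the plus strand (Btg4), chr14:30479315-30479564 on the plus strand (Dcp1a) and chr5:96161991-96162240 on the minus strand (Cnot6l).
Btg4: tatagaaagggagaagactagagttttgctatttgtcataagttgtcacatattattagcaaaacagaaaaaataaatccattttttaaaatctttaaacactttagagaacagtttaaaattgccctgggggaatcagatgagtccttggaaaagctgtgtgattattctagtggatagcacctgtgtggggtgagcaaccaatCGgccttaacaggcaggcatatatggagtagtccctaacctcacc
Dcp1a: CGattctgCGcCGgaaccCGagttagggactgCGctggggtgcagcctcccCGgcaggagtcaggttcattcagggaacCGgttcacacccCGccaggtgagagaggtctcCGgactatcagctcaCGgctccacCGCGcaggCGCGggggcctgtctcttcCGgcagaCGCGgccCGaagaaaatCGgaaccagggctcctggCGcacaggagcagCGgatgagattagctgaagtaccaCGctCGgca
Cnot6l: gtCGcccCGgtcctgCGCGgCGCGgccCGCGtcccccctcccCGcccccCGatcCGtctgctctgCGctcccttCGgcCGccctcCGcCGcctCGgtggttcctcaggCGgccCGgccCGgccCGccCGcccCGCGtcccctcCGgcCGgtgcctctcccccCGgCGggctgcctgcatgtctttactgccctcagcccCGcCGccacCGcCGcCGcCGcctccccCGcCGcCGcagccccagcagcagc
The Btg4 window held 1 CpG, the Dcp1a window 23 and the Cnot6l window 37, against a median of 6 over 32851 such windows. A window with as few CpGs as that of Btg4 made up 18.8% of all windows, and one with as many as that of Cnot6l made up 2.2%. Pan2 and Cnot6 held 14 and 29 CpGs. Cnot8 had windows of 3, 21, 26 and 21 CpGs, and further windows of Cnot6l held 36 and 27. The E-box letters CANNTG, which read the same on both strands, occurred at 2 positions in the Btg4 window and 1 in the Dcp1a window, and 66.2% of all windows held at least 1. The letters TAATTA, searched on both strands and present in 4.84% of all windows, were not in the windows of the 6 members. Nor were the letters TAATTG, present in 7.17% of windows on either strand. The TATA box letters TATAAA, present in 12.4% of windows on either strand, were also not found there.

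Btg4 was by far the most abundant member at every size. Its gene is on chromosome 9 (GRCm38, chr9:51116001-51119700, plus strand). It measured 137 and 109 RPKM in libraries A and B at 10-30 µm, 175 and 129 at 40-45 µm, 183 and 165 at 50-55 µm, 197 and 200.3 at 60-65 µm, and 224 in GV oocytes. The mRNA was thus already at 123 ± 20 RPKM (SD, n = 2) in the smallest oocytes, 61.9% of its 60-65 µm mean, and both 60-65 µm libraries lay above both 10-30 µm libraries. The rise was 1.65-fold (log2 change 0.72, SE 0.188, limma, adjusted p = 0.00971 over 10518 genes). At 60-65 µm Btg4 held rank 35 by level among the genes tested. No single step of growth reached the threshold: the log2 change was 0.40 from 10-30 to 40-45 µm (adjusted p = 0.159, limma), where libraries A and B of each class lay further apart than later.

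**Figure D1:**
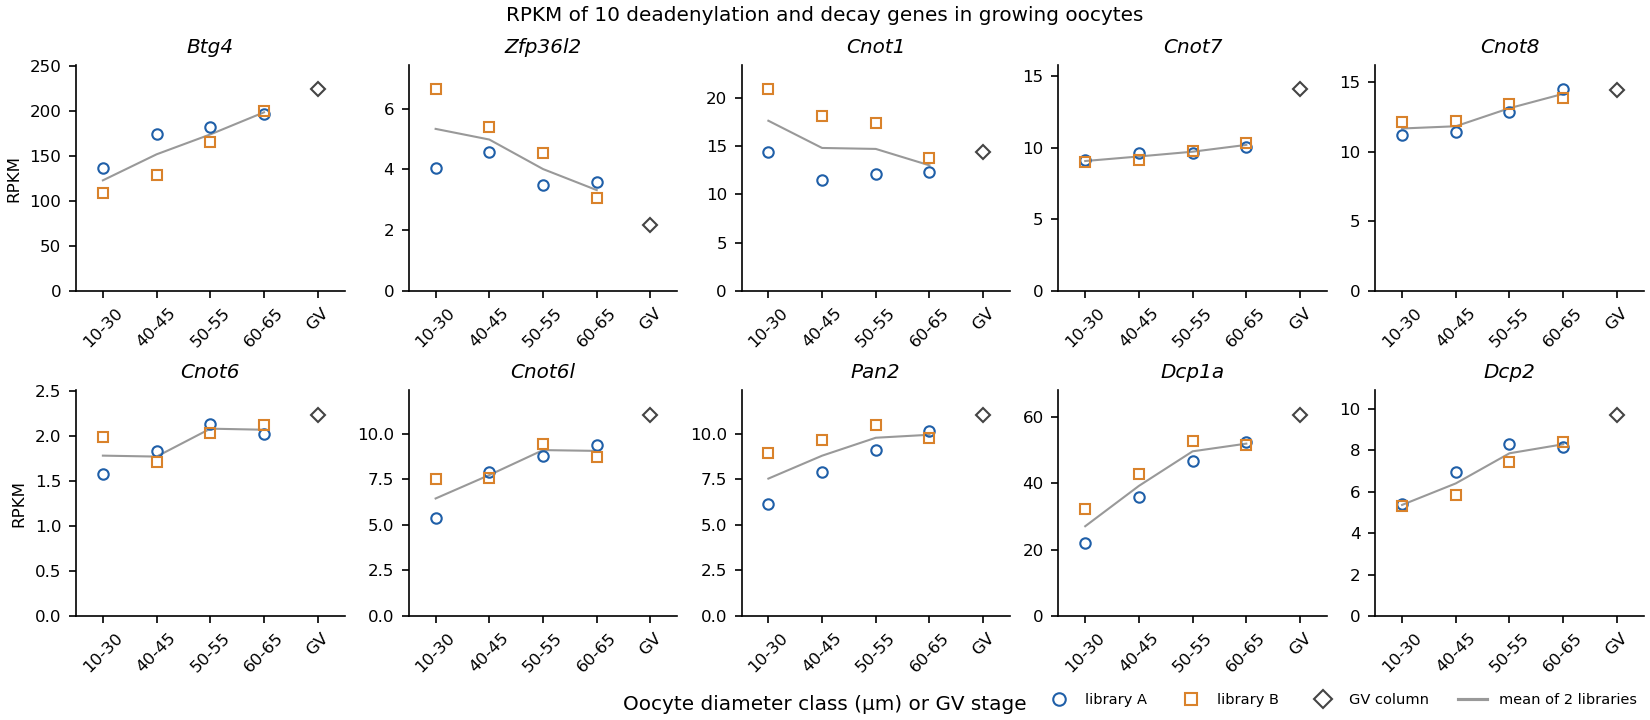
RPKM (linear axis from 0) of the 10 genes in each RNA library, by oocyte diameter class in µm and in GV oocytes. Circles are library A, squares library B, diamonds the single GV column, and the grey line joins the means of the 2 libraries. Btg4 runs from 109 to 224 RPKM and Dcp1a from 21.9 to 60.6, while Zfp36l2 ends at 2.17.

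Dcp1a and Dcp2 rose under more alternatives than any other member. Dcp1a encodes the activator of the decapping enzyme and lies at chr14:30479565-30527056, plus strand. Its RPKM was 21.9 and 32.1 at 10-30 µm, 35.7 and 42.6 at 40-45 µm, 46.5 and 52.6 at 50-55 µm, 52.4 and 51.4 at 60-65 µm, and 60.6 in GV oocytes. Every library of a larger class up to 50-55 µm lay above both libraries of the class before it, and the 50-55 and 60-65 µm libraries overlapped. Dcp1a rose 1.97-fold from 10-30 to 60-65 µm (log2 change 0.98, SE 0.154, limma, adjusted p = 0.000729). It was also the 1 member called between 10-30 and 40-45 µm in the main fit (log2 change 0.66, SE 0.154, limma, adjusted p = 0.0192). That call was lost when library A of 10-30 µm, library A of 40-45 µm or library B of 40-45 µm was left out, and without library scaling.

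Dcp2, the decapping enzyme itself (chr18:44380500-44424969, plus strand), started lower. It measured 5.41 and 5.32 RPKM at 10-30 µm, 6.94 and 5.87 at 40-45 µm, 8.30 and 7.43 at 50-55 µm, 8.18 and 8.42 at 60-65 µm, and 9.73 in GV oocytes. All 6 libraries from 40-45 µm upward exceeded both 10-30 µm libraries. The rise was 1.55-fold (log2 change 0.64, SE 0.122, limma, adjusted p = 0.00207). From 10-30 to 40-45 µm Dcp2 was not called in the main fit (log2 change 0.35, limma, adjusted p = 0.0728). With the library letter as a replicate block it was called in that step (limma, adjusted p = 0.0328). Dcp1a and Dcp2 kept an adjusted p under 0.05 for the whole of growth in all 21 alternative fits that kept the threshold on p alone, with highest values of 0.00864 for Dcp1a and 0.0389 for Dcp2. At 60-65 µm the activator was at 51.9 RPKM and the enzyme at 8.30 RPKM on average.

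Among the catalytic deadenylases of CCR4-NOT, Cnot6l rose and its paralogue Cnot6 did not pass the test. Cnot6l (chr5:96070333-96164171, minus strand) measured 5.38 and 7.52 RPKM at 10-30 µm, 7.92 and 7.55 at 40-45 µm, 8.76 and 9.45 at 50-55 µm, 9.39 and 8.73 at 60-65 µm, and 11.1 in GV oocytes. The 60-65 µm libraries did not overlap those of 10-30 µm, and the change was 1.43-fold (log2 change 0.52, SE 0.135, limma, adjusted p = 0.00935). Cnot6 (chr11:49671503-49712723, minus strand) was the lowest member in every growing library. It stood at 1.58 and 1.99 RPKM at 10-30 µm, 1.84 and 1.71 at 40-45 µm, 2.13 and 2.03 at 50-55 µm, 2.02 and 2.12 at 60-65 µm, and 2.24 in GV oocytes. Its log2 change over growth was 0.23 (95% interval -0.04 to 0.50, limma, adjusted p = 0.114). Without library A of 10-30 µm the log2 change of Cnot6 was 0.11, and without library B of that class it was 0.34. The difference between the paralogues' changes was not tested.

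The other pair of catalytic paralogues, Cnot7 and Cnot8, varied little across the growing classes, and Cnot7 was higher in GV oocytes. Cnot8 (chr11:58104153-58118594, plus strand) measured 11.2 and 12.2 RPKM at 10-30 µm, 11.4 and 12.2 at 40-45 µm, 12.9 and 13.4 at 50-55 µm, 14.5 and 13.8 at 60-65 µm, and 14.4 in GV oocytes. It rose 1.23-fold (log2 change 0.30, SE 0.0856, limma, adjusted p = 0.0157). Cnot7 (chr8:40492540-40515847, minus strand) ran from 8.99 to 10.3 RPKM in the 8 growing libraries and stood at 14.1 in GV oocytes. The 10-30 and 40-45 µm libraries overlapped, and those of each later class lay slightly above the class before. The log2 change over growth was 0.18 (95% interval -0.03 to 0.40, limma, adjusted p = 0.119). Vps37a on the opposite strand overlaps the Cnot7 gene and stood at 2.96 to 3.97 RPKM. Cacna1d, also on the opposite strand, overlaps Dcp1a and stood at 0.737 to 1.31 RPKM. The libraries kept strand, but whether the counting used it is not given in the sources used here.

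Cnot1, the scaffold on which the CCR4-NOT complex assembles, was the 1 member whose A and B libraries differed in the same direction at every size. The gene lies at chr8:95719451-95807462, minus strand. It measured 14.4 and 20.8 RPKM at 10-30 µm, 11.5 and 18.1 at 40-45 µm, 12.05 and 17.3 at 50-55 µm, 12.3 and 13.7 at 60-65 µm, and 14.3 in GV oocytes. Library B was higher than library A in all 4 classes and the 10-30 and 60-65 µm values did not overlap, while both 40-45 and both 50-55 µm libraries spanned the 60-65 µm values. The log2 change over growth was -0.40 (95% interval -0.95 to 0.16, limma, adjusted p = 0.181). Cnot1 passed as lower in 2 kinds of alternative fit given below, with the library letter as a replicate block and after correction for transcript length.

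Pan2, the catalytic subunit of the PAN2-PAN3 deadenylase (chr10:128303335-128321358, plus strand), measured 6.11 and 8.94 RPKM at 10-30 µm, 7.91 and 9.66 at 40-45 µm, 9.08 and 10.5 at 50-55 µm, 10.1 and 9.73 at 60-65 µm, and 11.04 in GV oocytes. Both 60-65 µm libraries lay above both 10-30 µm libraries. The rise was 1.35-fold (log2 change 0.44, SE 0.157, limma, adjusted p = 0.038), the weakest evidence among the 6 members that rose. It did not pass without library scaling (adjusted p = 0.073, limma), without the filter on low values (adjusted p = 0.0628, limma) or in edgeR on recovered reads (adjusted p = 0.052).

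Zfp36l2 was the 1 member called lower in the main fit. Its gene is at chr17:84183931-84187947, minus strand. RPKM was 4.03 and 6.63 at 10-30 µm, 4.57 and 5.39 at 40-45 µm, 3.49 and 4.53 at 50-55 µm, 3.57 and 3.06 at 60-65 µm, and 2.17 in GV oocytes. The GV value was below every growing library, and both 60-65 µm libraries were below both 10-30 µm libraries. The level at 60-65 µm was 0.654 times that at 10-30 µm (log2 change -0.61, SE 0.205, limma, adjusted p = 0.0289). The call was lost without library A of 60-65 µm (log2 change -0.71, limma, adjusted p = 0.0644), without library B of 60-65 µm (-0.51, adjusted p = 0.144) and without the filter on low values (-0.61, adjusted p = 0.0566). The 10-30 µm libraries moved the value more: without library B of that class the log2 change was -0.31 (limma, adjusted p = 0.154), and without library A it was -0.93 and still called.

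Over the whole of growth, 7 of the 10 members therefore passed the test, 6 higher (Dcp1a, Btg4, Dcp2, Cnot6l, Pan2 and Cnot8) and 1 lower (Zfp36l2). Of all 10518 genes tested, 32.5% were called higher and 30.9% lower, so that a call in this comparison was common. The median log2 change of the members was 0.37, beside 0.02 for all genes tested. Without library A of 60-65 µm, 3 members passed (Btg4, Dcp1a and Dcp2), and without library B, 3 passed (Cnot6l, Dcp1a and Dcp2). Calls over all genes were also fewer in these fits, 4822 of 10399 without library A and 5400 of 10408 without library B, against 6661 of 10518 with every library. Without library A of 10-30 µm Pan2 was lost (log2 change 0.20, limma, adjusted p = 0.231) and 6 members passed, Cnot6l with a log2 change of 0.32, as did 5592 of 10300 genes. Without library B of 10-30 µm Btg4 (adjusted p = 0.0542, limma) and Zfp36l2 were lost and Cnot6 passed (adjusted p = 0.0404, limma), which again made 6, beside 6477 of 10291 genes. Pan2 then had a log2 change of 0.66. With every library in the fit, no member changed by as much as 2-fold, and without library B of 10-30 µm the log2 change of Dcp1a was 1.21.

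**Figure D2:**
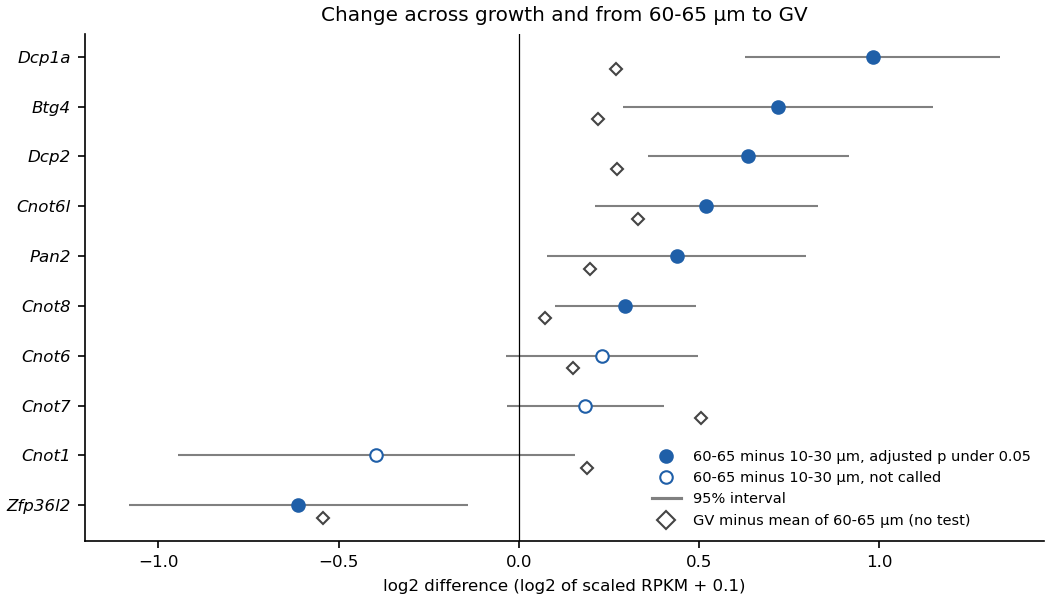
Log2 change of each gene from 10-30 to 60-65 µm (circles, filled where the adjusted p was under 0.05, with 95% intervals as lines) and log2 difference of the GV column from the 60-65 µm mean (diamonds, no test). Dcp1a leads at 0.98, Zfp36l2 is lowest at -0.61, and the GV difference is below 0 for Zfp36l2 alone.

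Within single steps of growth few changes passed the test. From 10-30 to 40-45 µm, 1 of 10 was called higher and 0 lower, against 14.8% of all genes higher and 8.57% lower, and the log2 changes of Cnot6l, Dcp2 and Pan2 were 0.38, 0.35 and 0.34. From 40-45 to 50-55 µm no member was called by limma, at an unadjusted p under 0.05 either, or by edgeR on recovered reads, against 5.18% of genes higher and 3.72% lower. The changes in that step ran from -0.36 for Zfp36l2 to 0.30 for Dcp1a. From 50-55 to 60-65 µm they ran from -0.30 for Zfp36l2 to 0.15 for Btg4, and limma called 0% of genes in either direction, with 690 genes higher and 761 lower at an unadjusted p under 0.05, none of them a member. edgeR on recovered reads, also without a replicate block, called 0 genes in that step. At 50-55 µm Cnot6l and Cnot6 stood at 100.5% and 100.6% of their 60-65 µm means, Pan2 at 98.4%, Dcp1a at 95.5%, Cnot7 at 95.3%, Dcp2 at 94.7%, Cnot8 at 92.7% and Btg4 at 87.6%.

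In GV oocytes, after scaling of the libraries, 9 of the 10 members lay above both 60-65 µm libraries and Zfp36l2 lay below both, where 42.1% of all genes tested lay above both and 38.7% below both. In unscaled RPKM Cnot8 (14.4 in GV) fell between its 60-65 µm libraries. With 1 GV column this difference has no test. Cnot7 differed most among those above, at 1.42 times the 60-65 µm level (log2 difference 0.51), followed by Cnot6l at 1.26 times, Dcp2 and Dcp1a at 1.21 times each, and Btg4 at 1.16 times. Zfp36l2 was at 0.686 times (log2 difference -0.54). No member lay 2-fold or more outside both 60-65 µm libraries, as did 0.2% of genes tested on the high side and 0.133% on the low side. The median difference of all genes tested was 0.01.

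By level at 60-65 µm, Btg4 (197 to 200.3 RPKM) was followed by Dcp1a (51.4 to 52.4), Cnot8 (13.8 to 14.5), Cnot1 (12.3 to 13.7), Cnot7 (10.0 to 10.3), Pan2 (9.73 to 10.1), Cnot6l (8.73 to 9.39), Dcp2 (8.18 to 8.42), Zfp36l2 (3.06 to 3.57) and Cnot6 (2.02 to 2.12). The libraries of Cnot7 and Pan2 overlapped, and the nearest libraries of Cnot8 and Cnot1 were at 13.8 and 13.7. Btg4 and Dcp1a were at percentiles 99.7 and 98.0 of the genes tested. The scaffold Cnot1 and the 4 catalytic CCR4-NOT subunits measured here therefore spanned from 2.02 to 14.5 RPKM, well below their adaptor Btg4.

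The partners of these proteins, fixed by name together with the wider list, did not move as one group. Pan3, the regulatory partner of Pan2, went from 4.25 and 5.83 RPKM at 10-30 µm to 10.5 and 10.5 at 60-65 µm (log2 change 1.08, SE 0.126, limma, adjusted p = 0.000144), beside 0.44 for Pan2 in the same fit, and the difference between the 2 was not tested. Tob2, a BTG/TOB adaptor of CCR4-NOT, measured 3.12 and 5.22 RPKM at 10-30 µm and 14.4 and 12.2 at 60-65 µm (log2 change 1.71, SE 0.194, limma, adjusted p = 0.000125). Tob1 rose by 0.39 on the log2 scale, Btg2 fell by 0.33, and Btg1 stayed between 0.833 and 1.49 RPKM with no call. Btg3 and Cnot4, added after their values were seen, belong to the same group. Btg3 measured 3.12 and 3.19 RPKM at 10-30 µm and 1.78 and 1.62 at 60-65 µm (log2 change -0.83, SE 0.095, limma, adjusted p = 0.000126), and Cnot4 was not called (log2 change -0.19). Of the non-catalytic CCR4-NOT subunits, Cnot10 fell by 0.29, Cnot2 had a log2 change of -0.11 and Rqcd1, the older symbol of Cnot9, one of 0.25, the last 2 not called. Cnot3 measured 2.15 and 5.40 RPKM at 10-30 µm and 7.21 and 6.84 at 60-65 µm, and with that spread between libraries its log2 change of 1.03 was not called (limma, adjusted p = 0.074).

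In the decapping group, the scaffold Edc4 rose with Dcp1a and Dcp2, from 21.4 and 28.6 RPKM to 37.3 and 33.8 (log2 change 0.54, limma, adjusted p = 0.00883). Dcp1b, the paralogue of Dcp1a, did not pass the filter, at 0.0855 to 0.327 RPKM. The helicase Ddx6 fell by 0.51 on the log2 scale, and Xrn1, the exonuclease that degrades decapped mRNA, ran from 1.28 to 1.69 RPKM with a log2 change of -0.02. The deadenylase Parn had a log2 change of -0.27 (limma, adjusted p = 0.0574). The paralogues of Zfp36l2 were below the filter, Zfp36 at 0.225 to 0.523 RPKM and Zfp36l1 at 0.0316 to 0.112 RPKM. The oocyte poly(A)-binding proteins Pabpc1l and Pabpn1l, which bind the tails that these enzymes shorten, went from 11.05 and 13.9 to 30.8 and 29.3 RPKM (log2 change 1.29) and from 28.2 and 33.5 to 62.3 and 62.1 RPKM (log2 change 1.03), and both passed.

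Across the wider list, 81 of the 89 decay genes in the table were tested, and 22 rose, 27 fell and 32 were not called over growth, where 32.5% of all genes were called higher and 30.9% lower. The list was thus called about as often as genes in general, and its median log2 change was 0.01. By role, 10 of 18 decapping and 5′ to 3′ decay genes fell and 3 rose, with all of Lsm1 to Lsm7 among those that fell and Lsm7 the lowest (log2 change -1.23), followed by Lsm5 (-0.99), the scavenger decapping enzyme Dcps (-0.95) and Lsm4 (-0.92). The Lsm proteins form the ring that binds shortened 3′ ends before decapping, and some of them also serve the spliceosome. Of 16 exosome and Ski genes 8 fell and 2 rose, and of 7 further deadenylases 4 rose and 1 fell. Among 15 RNA-binding proteins that recruit decay, 5 rose and 3 fell, led by Nanos2 (log2 change 1.61), Ythdf3 (0.97) and Nanos1 (0.84) upward and by Trim71 (-1.11) downward. Of 8 nonsense-mediated decay genes 3 rose, the helicase Upf1 most (0.83), and 0 fell. Of 5 poly(A)-binding proteins 2 rose and 2 fell, and of 2 terminal uridylyl transferases Tut1 rose (0.72). Without library A of 60-65 µm 31 of the 81 genes were called, and without library B 37.

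**Figure D3:**
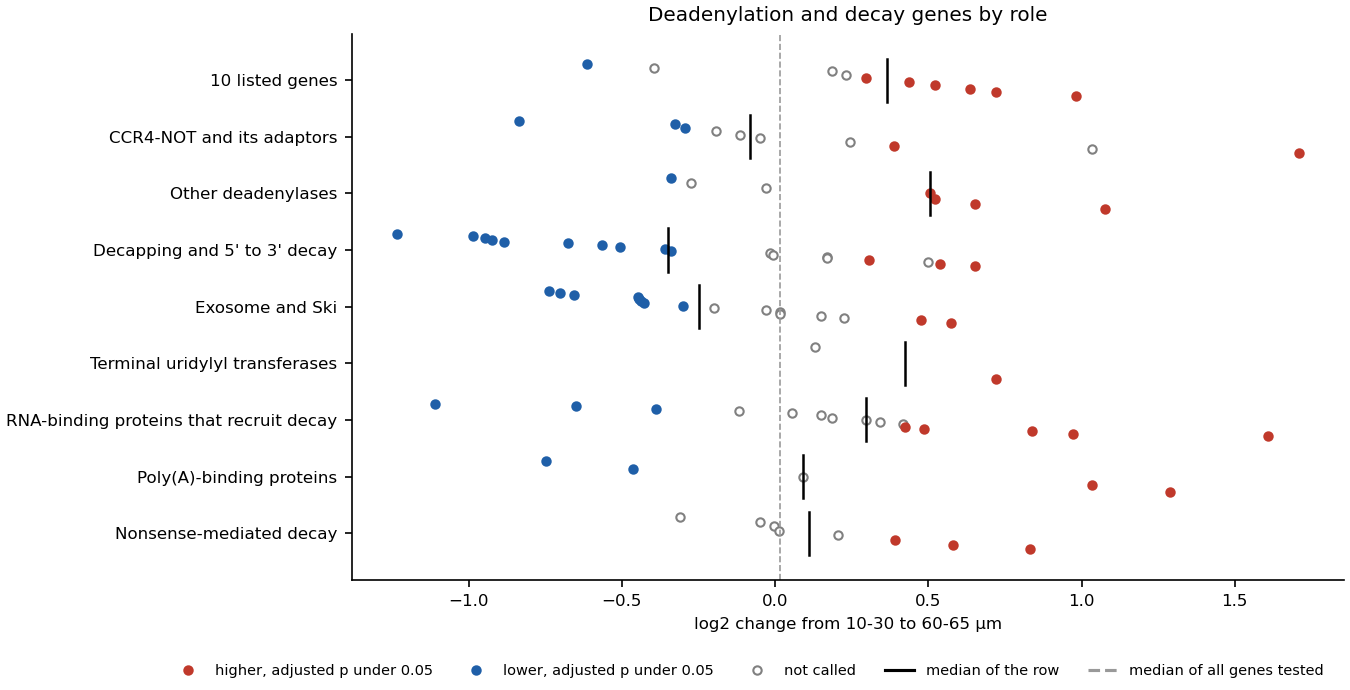
Log2 change from 10-30 to 60-65 µm of the 10 genes and of the 81 other decay genes tested, 1 point per gene in rows by role. Red points were called higher, blue points lower and open points not called, with the row median as a black bar and the median of all genes tested (0.02) as a dashed line. The 10 listed genes have a median of 0.37, while the decapping row lies mostly to the left, at -0.35.

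The genes whose pattern was most like that of a member were found over the 9 RNA columns, which share libraries, depth and base composition. Closest to Btg4 by Pearson correlation of log2 values were Zfp830 (r = 0.996), Ccdc41 (0.993), the gene that the table spells Sep-15 (0.989), 4933431E20Rik (0.986) and Serpini1 (0.986). Zfp830 ran from 3.92 to 6.12 RPKM, with library A above library B at 10-30, 40-45 and 50-55 µm, as for Btg4. Closest to Zfp36l2 were Sgsm2 (r = 0.984), Gmeb2 (0.981), Fasn (0.981), Foxj2 (0.978) and Dvl2 (0.97). Sgsm2 ran from 4.08 down to 1.59 RPKM, and in those 3 classes library B was above library A, the reverse of Btg4. These coefficients describe a pattern of 9 values that includes the difference between libraries A and B.

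That difference was related across genes to GC content and to transcript length. Transcripts of the members ran from 37.6% GC (Cnot6l) to 54.8% (Zfp36l2), with Btg4 at 41.3%, beside a median of 49.8% over 9446 tested genes with a value. Across genes, which are not independent replicates, the A minus B difference correlated with GC at Spearman's rho of -0.279, -0.437, -0.295 and 0.193 in the 4 classes from small to large. With transcript length the coefficients were -0.423, -0.155, -0.197 and 0.153. The log2 change itself correlated with transcript length at 0.217 over the whole of growth and at 0.308 from 40-45 to 50-55 µm. With GC these coefficients were 0.0739 and -0.0226. Transcripts of Dcp2, Cnot6l, Cnot1, Cnot6 and Dcp1a had 8616, 8564, 8390, 5736 and 5576 bases, above the upper quartile of 4562. Those of the other members were shorter than that, with Btg4 at 1486 bases. When a smooth curve over GC was taken out of each library, an alternative added after the data had been seen, 9 members passed over the whole of growth, all but Cnot1, as did 6184 of the 9446 genes with a GC value. Under that correction Cnot7 (log2 change 0.30, limma, adjusted p = 0.0101) and Cnot6 (0.36, limma, adjusted p = 0.026) passed, and Btg4 moved to 0.83. Dcp2 was then also called from 10-30 to 40-45 µm (0.34, limma, adjusted p = 0.028). When a curve over transcript length was taken out instead, also added later, 7 members passed, as did 5888 of the 9446 genes. Cnot1 then passed as lower (log2 change -0.60, limma, adjusted p = 0.026) and Pan2 did not pass (0.30, limma, adjusted p = 0.0743). The log2 changes of Cnot6l and Dcp2 went to 0.31 and 0.43 and still passed, while that of Cnot6 went to 0.04.

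Methylation of the gene bodies was read from the PBAT library, in which 98.1 M cytosine calls fell on the chromosomes used. In oocytes, DNA methylation is laid down during growth mainly over transcribed gene bodies, while most CpG islands at active starts stay free of it. The value is the mean percentage over CpG cytosines with at least 5 reads, from 2 kb downstream of the start to the end of the gene, and intervals are 95% Wilson intervals of the pooled calls that cover counting error only. Over 17524 genes the median was 28.9%. Among the 2119 genes of highest expression at 60-65 µm it was 47.8% and in genes under 0.5 RPKM 9.67%, so that expressed and silent genes differed in this library.

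Of the 9 members with enough positions, 6 lay above the median of all genes. Most expressed genes did so too: when genes of at least 0.5 RPKM were split into 4 equal groups by expression, the lower quartile of each group lay between 29.9% and 41.2%. Cnot6 and Zfp36l2 belong to the group with a median of 54.0%, and the other members to the group of highest expression. Cnot6 was at 70.6% (16 positions, 96 calls, interval 56.8% to 75.3%), Pan2 at 57.7% (133 positions, 56.8% to 62.4%), Dcp2 at 54.1% (128 positions, 49.3% to 56.0%), Cnot1 at 53.1% (108 positions, 51.1% to 58.2%), Cnot8 at 52.7% (60 positions, 46.8% to 56.2%) and Dcp1a at 41.7% (85 positions, 38.2% to 45.9%). Cnot6, the least abundant member, thus had the highest value, though its interval overlaps those of Pan2 and Cnot1. Cnot6l, Cnot7 and Zfp36l2 were low, at 12.8%, 4.74% and 4.32%. Btg4 had 4 positions, fewer than the 10 required, with 2 of 26 calls methylated, and with every position counted from 1 read it was at 5.01% over 39 positions. Counted that way, Cnot6 was at 60.0% over 325 positions, Pan2 at 56.7% over 386 and Dcp2 at 55.3% over 685. Cnot1 was then at 48.1%, Dcp1a at 44.9% and Cnot8 at 42.5%. The low members were higher, Cnot6l at 25.2% over 713 positions, Cnot7 at 14.1% over 411 and Zfp36l2 at 9.16% over 91.

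**Figure D4:**
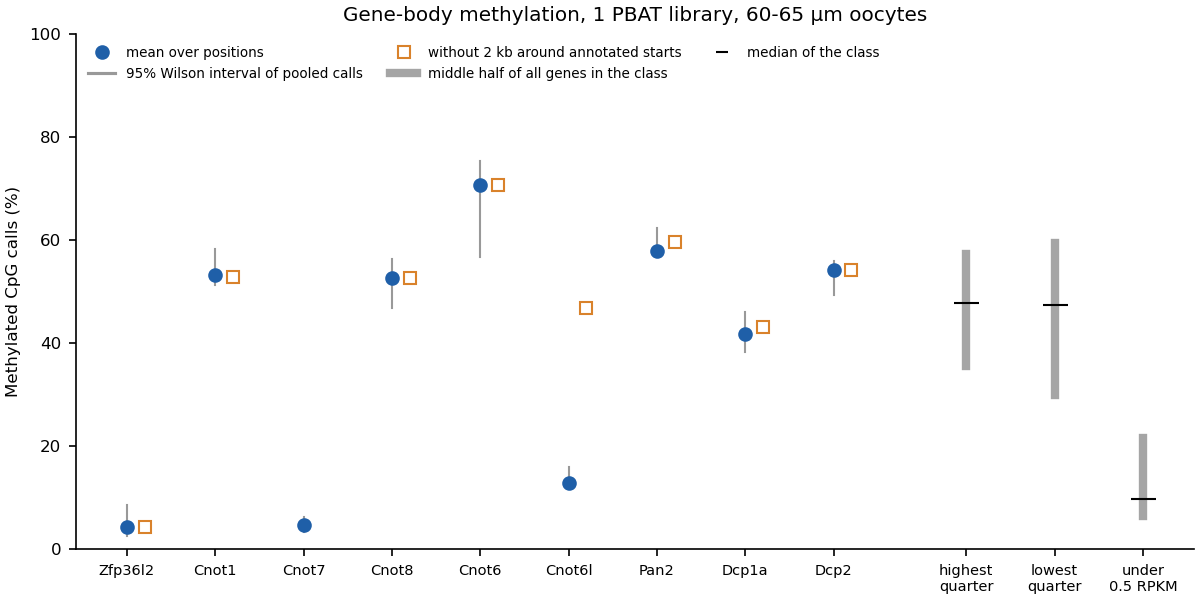
Percent methylated CpG calls in the bodies of 9 members in the single PBAT library of 60-65 µm oocytes (circles, mean over positions, with the 95% Wilson interval of the pooled calls as a line) and without 2 kb around annotated starts (open squares, 8 members). At the right, grey bars run from the lower to the upper quartile, with the median as a tick, for the most and the least expressed genes of at least 0.5 RPKM and for genes under 0.5 RPKM. Cnot6l moves from 12.8% to 46.8%, and Zfp36l2, at 4.32%, had no position in the windows left out.

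The low value of Cnot6l depended on where the start was placed, and for Cnot7 too few positions were left to give a value. The table begins Cnot6l at position 96164171, while its full-length coding transcript in GENCODE M21 begins 2181 bases further in, next to the CpG-rich window printed above, and for Cnot7 the distance was 4129 bases. When positions within 2 kb of every annotated protein-coding start were left out, an alternative chosen after the data had been seen, Cnot6l was at 46.8% over 68 positions, beside a median of 52.2% for genes of at least 0.5 RPKM. Cnot7 then kept 7 positions, fewer than the 10 required, with 16 of 51 calls methylated. No position of Zfp36l2 lay in the windows left out, so its value could not change. Its body window was short, from 84183931 to 84185947, as was that of Btg4, from 51118001 to 51119700. These values were not set beside genes of like length.

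The starts of the members carried little methylation in the size classes measured. RRBS gave a value within 500 bases of the table's start for 7 members, all but Btg4, Cnot6l and Cnot7, from 29.9 to 57.2 M calls per library. At 40-45 µm they ran from 0% to 1.39%, at 50-55 µm from 0% to 0.92%, with Pan2 not covered in library B, and at 60-65 µm from 0% to 1.47% in library A and 0% to 5% in library B. The medians over all gene starts were 0.303% to 0.599% in these libraries, and 95.7% to 99.2% of all starts were under 5%, so low values at the members' starts were the rule for the genome.

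At the start of Dcp1a, whose mRNA rose most, the 6 libraries gave 0.139% to 0.993% over 22 to 31 positions. Cnot8 had 0 methylated calls in all 6, of 90 to 499 calls, which allows a share of up to 0.601% to 3.33% (3 calls of the total, for the counting error of PCR reads only). Zfp36l2, the member called lower, had 0 of 301 and 0 of 262 calls at 40-45 µm, which allows up to 0.997% and 1.15%. It had 1 of 424 and 1 of 318 at 50-55 µm, and 3 of 292 and 4 of 175 at 60-65 µm. With 2 libraries a class an exact permutation test cannot go below p = 0.333, and no test was made. At the annotated inner starts, Cnot6l ran from 0.338% to 0.664% in 5 RRBS libraries and was at 8.01% in library B of 50-55 µm, with 50 of 2439 calls methylated, and Cnot7 ran from 0.0824% to 1.61%. PBAT gave 0.993% to 7.4% at the 7 starts measured at 60-65 µm, with Dcp2 the highest. The median over all starts in that library was 3.46%, and 69.0% of them were under 5%.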

How the data were processed

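The series holds 16 samples, of which 9 are RNA-seq and 7 bisulfite libraries, and samples were grouped by the assay and diameter in their labels. Per the submitters' processing notes and the study's methods, reads were trimmed with Trim Galore (0.2.8 for RNA, 0.3.5 for RRBS), aligned to GRCm38 with TopHat2 2.0.9 or Bismark (versions 0.10.0 and 0.14.0 are listed), and replicates were not pooled. The authors deposited 1 table of RPKM values per gene; which tool made it, and whether it counted by strand, is not given in the sources used here. For bisulfite libraries the authors deposited the percent methylation of each CpG cytosine with its counts of methylated and unmethylated calls.

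RPKM values were scaled between libraries by a trimmed mean of log ratios (30% trimmed by ratio, 5% by level). A gene entered the fit when 2 of the 8 growing libraries reached 0.5 RPKM, and values were fitted as log2(scaled RPKM + 0.1) with limma 3.58.1 in R 4.3.3, with a mean per size class and an intensity trend. Fold changes on this scale understate those of low genes. Tests were two-sided and adjusted by Benjamini-Hochberg over all 10518 genes, with a threshold of 0.05. A single GV column allowed no test. Values in the low range were whole multiples of 1 read (at least 99.4% whole within 0.02 read), and edgeR 4.0.16 (quasi-likelihood) was run on recovered reads of 10476 genes as an alternative, which called 6595 genes over the whole of growth against 6661 by limma. Such reads may include both mates of a pair and are not independent molecules. Methylation was averaged over cytosines with at least 5 reads, for at least 10 positions in gene bodies and 5 at starts. Python 3.11.15, numpy 2.4.6, pandas 2.3.3, scipy 1.17.1 and matplotlib 3.10.9 were used, and the fits were tested on simulated data.

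The members and lists were chosen with earlier results of these data known. All 10 members are named, with a fixed list of partners and counterparts of their proteins (Btg3 and Cnot4 were added after their values were seen), the 5 other decay genes with the largest called change in each direction, and the 5 genes most alike to Btg4 and to Zfp36l2. Alternatives covered pseudocount, filter, scaling, trend, a replicate block, a 2-fold minimum, each library left out, coverage and windows. The fits on recovered reads, the GC and length corrections and the removal of annotated starts were added after the data had been seen.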

Additional observations from a re-analysis of the deposited data

How the results depend on the processing

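Of 399 refitted log2 changes of members, 399 kept their direction and 362 their side of the threshold, 20 no longer passed and 17 newly passed. All 50 recomputed GV differences kept their sign. From 10-30 to 40-45 µm, 1 member was called, against 0 without scaling, 0 at 2-fold or more, 2 with the replicate block, 2 in edgeR with the block, 2 after GC correction, 3 after GC correction with the block, and 0 to 3 with 1 library left out. In that step 2456 of all 10518 genes tested were called, against 2609 without scaling, 391 at 2-fold or more and 3345 with the block. In edgeR with the block it was 3371 of 10476 genes. After GC correction it was 2451 of 9446, and 3310 of 9446 with the block as well. From 40-45 to 50-55 µm, 0 members were called, against 1 after GC correction with the block. All genes called there went from 936 of 10518 to 1946 of 9446. Over the whole of growth 7 were called, against 0 at 2-fold or more and 3 to 7 with 1 library left out. For the wider decay list, the 13 calls from 10-30 to 40-45 µm became 20 without scaling, 0 at 2-fold or more, 22 in edgeR with the block, 21 after GC correction with the block and 4 to 24 with 1 library left out. The 4 calls from 40-45 to 50-55 µm became 0, 7, 7 and 0 to 9 under the last 4 of these, and the 49 over the whole of growth became 7 at 2-fold or more and 31 to 53 with 1 library left out. Calls over all genes moved too. From 40-45 to 50-55 µm they went from 936 of 10518 to 151 at 2-fold or more, and to 1981 of 10476 in edgeR with the block. Over the whole of growth 1976 of 10518 genes passed at 2-fold or more, against 6661 without that minimum. The cause of these moves was not tested.

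The A minus B differences of genes correlated between 10-30 and 40-45 µm at r = 0.596, between 10-30 and 50-55 µm at 0.589 and between 40-45 and 50-55 µm at 0.67. With those of 60-65 µm they correlated at -0.227 (10-30 µm), -0.0256 (40-45 µm) and 0.113 (50-55 µm), so the letter was shared by the 3 smaller classes but not by every pair, and it was taken as a name only. With the letter as a replicate block, 8 members were called over the whole of growth. Cnot1 was the member gained, as lower (log2 change -0.40, limma, adjusted p = 0.0121). GC correction with the block called 10 members and 6739 of 9446 genes. From 10-30 to 40-45 µm Dcp2 was the member gained with the block (log2 change 0.35, limma, adjusted p = 0.0328), and it was also called in edgeR with the block and after GC correction. Over the whole of growth the block alone called 7297 of all genes against 6661, and from 50-55 to 60-65 µm 229 of all genes were called against 0 without it, 290 in edgeR with the block and 257 after GC correction with the block. A pseudocount of 1 called 8 genes in that step. Depth limits the start values, where 3 calls of the total bound a count of 0, and Btg4 had too few covered CpG positions for a value in gene body or start.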
